A study of Mus musculus with 9 samples.

Results

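The enteric neuron and glia genes described here are a list of 32 genes, fixed by name, that mark the nerve cells and supporting glia of the gut wall. They fall into 5 roles: 6 neuropeptides, 3 enzymes of transmitter synthesis, 17 genes of neuronal structure and secretion, 2 genes of the receptor for glial cell line-derived neurotrophic factor (GDNF), and 4 glial genes. A probe was found by transcript accession for 31 of the 32, and 29 passed the filter on dim probes, among 14192 named genes and 21094 features tested in all. No probe was named here for Sox10, a transcription factor of neural crest and glia, and Nos1 and Ret were too dim to test.

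The series concerned dietary calcium and colorectal cancer in ICR mice, an outbred stock. RNA from colon mucosa, labelled normal, was hybridised to 9 Agilent 1-colour arrays, 3 per group. Group hCA-Notumor received a diet with 3% calcium and had no tumors, group hCA-Tumor received the same diet and had tumors, and group DMH received a diet with 1.24% calcium. All 3 groups were given 1,2-dimethylhydrazine, a colon carcinogen also abbreviated DMH, under the skin at 20 mg/kg weekly for 20 weeks, so no array shows mucosa without the carcinogen. For group DMH the label on tumors reads only control and does not say whether tumors were present. The labels give no sex, age or pooling. Nor do they state that replicate arrays are separate animals, and the p-values therefore reflect array-to-array spread that could be technical.

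The enteric nervous system is the network of neurons and glia within the gut wall. Its ganglia lie in the submucosal plexus and, between the muscle layers, in the myenteric plexus, and nerve fibres and glia reach into the mucosa. Its neurons signal with acetylcholine, nitric oxide and peptides, and control motility, secretion and blood flow. In a sample of whole tissue, fewer cells of a type and less RNA per cell cannot be told apart.

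Levels below are the log2 of an array's processed signal minus that array's 75th percentile, so 0 is a signal at that percentile, and they are compared between arrays only for the same probe. Differences are in the same log2 units with the standard error (SE) of limma's fit over all 9 arrays (n = 3 arrays per group). A gene is called higher or lower when its p, adjusted by the Benjamini-Hochberg method over all 21094 features, is under 0.05. Both comparisons against DMH use the same 3 DMH arrays.

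Between 61.1 and 73.8% of the 41174 probes of an array were well above background, and precision is limited by having 3 arrays per group. The 9 arrays lay on 3 slides. Slide 1 held the 3 hCA-Notumor arrays and DMH replicate 1, slide 2 held hCA-Tumor replicates 1 and 2 and DMH replicates 2 and 3, and slide 3 held hCA-Tumor replicate 3 alone. That array stood apart from its group: over all features it correlated with hCA-Tumor replicates 1 and 2 at r = 0.967, with 2887 and 2935 features at least 2-fold apart, while it correlated with the hCA-Notumor arrays at 0.970 to 0.972 and with DMH replicate 1 at 0.9754. Arrays that shared group and slide correlated at 0.994 to 0.997. Arrays of 1 group on different slides correlated at 0.967 to 0.984, and arrays of different groups on 1 slide at 0.979 to 0.983. No slide held arrays of both high calcium groups, so a direct comparison of these groups is also one between slides. Only the DMH arrays link slides 1 and 2. Results for hCA-Tumor are given with its replicate 3, and without it below. The labelled tissue was checked against its markers: 13 of 14 epithelial genes were measured, with a mean level over the list of 5.94 to 6.04 in hCA-Notumor, 5.69 to 5.89 in hCA-Tumor and 5.86 to 5.95 in DMH. Of 17 smooth muscle genes 16 were measured, with mean levels of 3.45 to 3.76 in hCA-Notumor, 3.88 to 4.20 in hCA-Tumor and 2.56 to 3.24 in DMH.

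Promoter sequence is shown for 3 members that moved and whose upstream region holds a core letter motif of the cAMP response element, TGACG, an element that textbooks describe in the promoter of the Vip gene. RefSeq windows of build GRCm38.p6 were found for 22 of the 32 members, and only the 250 bases before each start in that table (32851 windows, some genes having several) were searched, on both strands. TGACG was present in 9 of those 22 genes (Vip, Tac1, Cartpt, Nos1, Chat, Dbh, Elavl4, Scg2 and Scg3), and in 19.8% of all 27025 genes with a window. The longer palindrome TGACGTCA, which contains TGACG, was present in 2 of the 22 members, Cartpt and Scg2, and in 1.77% of all genes. The Cartpt window lies within the annotated span of that gene and is not printed. A match is a description of letters in a window and not evidence of a site. The sequences run 5′ to 3′ on the strand of the gene, with TGACG or its reverse complement in capitals and no base of the annotated gene included. The Vip stretch is chr10:5639068-5639192 (+ strand), that of Tac1 is chr6:7554911-7555060 (+ strand) and that of Scg2 is chr1:79440027-79440176 (- strand), and all 3 are upstream of the first exon.
Vip: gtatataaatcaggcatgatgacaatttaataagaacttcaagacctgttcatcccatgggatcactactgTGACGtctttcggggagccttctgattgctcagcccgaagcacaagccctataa
Tac1: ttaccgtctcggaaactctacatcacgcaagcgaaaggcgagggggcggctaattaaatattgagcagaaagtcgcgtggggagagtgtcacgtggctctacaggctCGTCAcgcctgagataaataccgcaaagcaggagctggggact
Scg2: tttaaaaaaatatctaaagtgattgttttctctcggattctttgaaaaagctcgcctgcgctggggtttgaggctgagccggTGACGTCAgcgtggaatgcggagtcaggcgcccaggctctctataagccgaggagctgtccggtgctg

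Against DMH, part of the enteric neuron and glia genes was higher in each high calcium group and none was lower. In hCA-Notumor 8 of 29 measured members were higher and 0 lower than in DMH (background: 18.4% of all features were called higher and 17.3% lower). In hCA-Tumor 13 of 29 were higher and 0 lower (background: 21% higher and 15.9% lower). Over both directions, 35.7% of all features were called in hCA-Notumor and 36.9% in hCA-Tumor. At an unadjusted p under 0.05, 11 members passed in hCA-Notumor and 21 in hCA-Tumor (background: 9837 and 9739 of the 21094 features). Chat, Snap25 and Gap43 were not well above background on every array. Among the other 26 members 7 were called higher in hCA-Notumor and 12 in hCA-Tumor. The median difference of the 29 members from DMH was 0.40 in hCA-Notumor and 0.75 in hCA-Tumor, against medians over all features of 0.07 and 0.08. With the mean of both high calcium groups set against DMH, 12 members were higher and 0 lower (background: 17.8% higher and 13.7% lower), with a member median of 0.58.

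Of the calls against DMH, 5 genes (Vip, Snap25, Nefl, Nefm and Ncam1) were called higher in both high calcium groups, of which Snap25 passed the filter on dim probes only through those groups. Another 3 (Dbh, Elavl3 and L1cam) were called in hCA-Notumor, and 8 (Tac1, Npy, Cartpt, Elavl4, Prph, Tubb3, Scg2 and Gfap) in hCA-Tumor. Between the high calcium groups, hCA-Notumor was lower than hCA-Tumor in 7 members (Vip, Tac1, Gal, Npy, Cartpt, Nefl and Gfap) and higher in 2, Elavl3 and L1cam (background: 27% of features lower and 20.6% higher, 47.5% in all). No pairwise comparison called the remaining 12 measured members: Calb2, Chat, Gap43, Gfra1, Grp, Ngfr, S100b, Scg3, Stmn2, Stmn3, Syt1 and Uchl1.

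The arrays of hCA-Notumor and DMH did not overlap in 11 members, all higher in hCA-Notumor (background: 33.8% of features higher and 24.1% lower). Those of hCA-Tumor and DMH did not overlap in 20, all higher in hCA-Tumor (background: 28.3% higher and 21.3% lower). Between hCA-Notumor and hCA-Tumor, 7 members were lower without overlap and 3 higher (background: 33.2% and 25.9%). These counts include members that passed the filter on dim probes only through groups where they are higher. They are Snap25 in both comparisons with DMH, Gap43 in hCA-Tumor against DMH, and Chat between the high calcium groups.

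**Figure D1:**
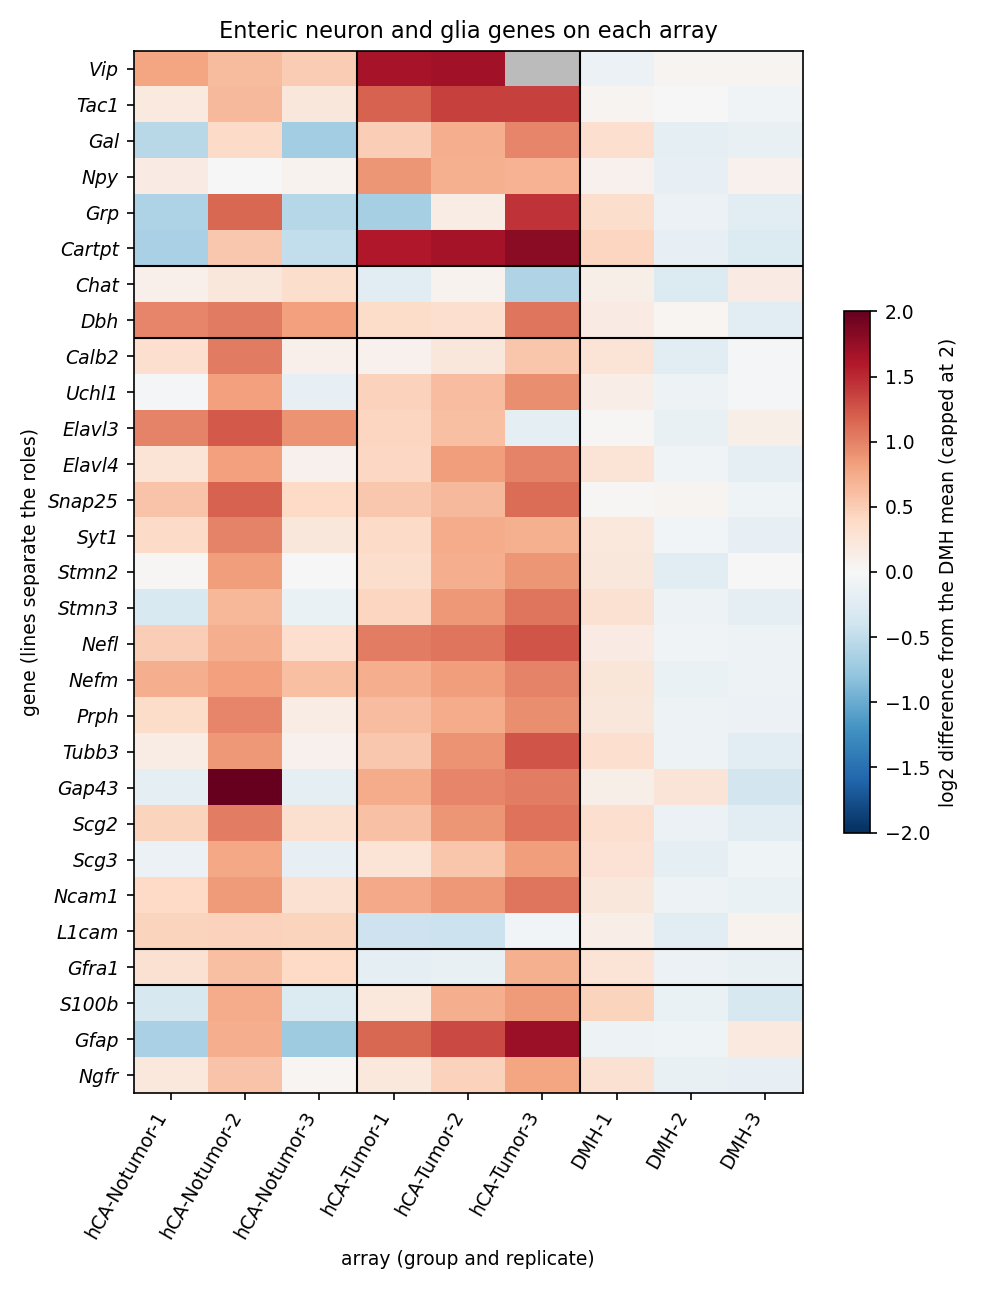
Heat map of the 29 measured members (rows, ordered by role) on the 9 arrays (columns), as the log2 difference of each array from the mean of the 3 DMH arrays of that gene. Colours are capped at 2, and the grey cell is the Vip spot left out on hCA-Tumor replicate 3. The hCA-Tumor columns are red in nearly all rows, and within hCA-Notumor replicate 2 is the reddest column.

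**Figure D2:**
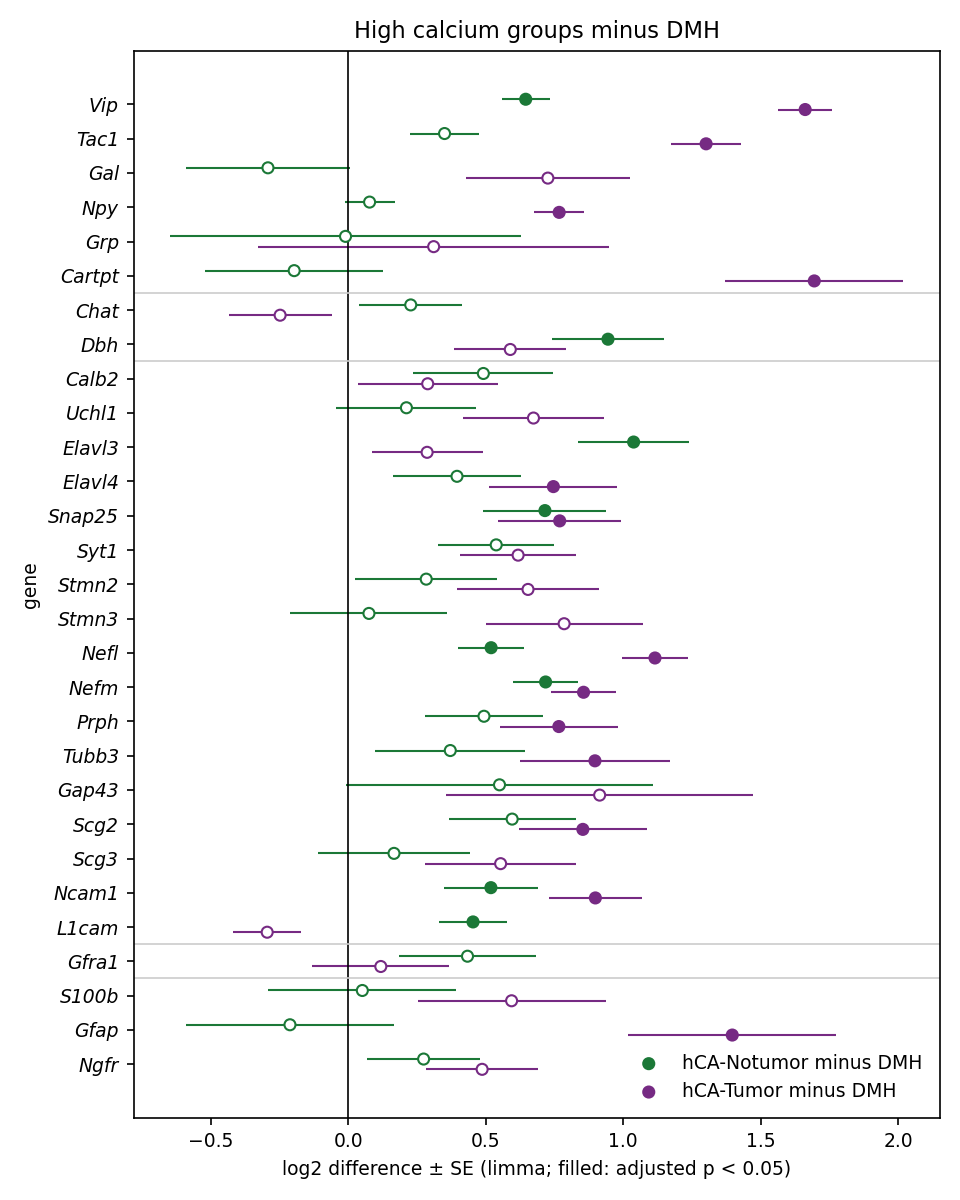
Log2 difference from DMH ± SE of the limma fit for each measured member, in hCA-Notumor (green) and hCA-Tumor (purple), with filled points where the adjusted p is under 0.05. Filled points number 8 in hCA-Notumor and 13 in hCA-Tumor, and all lie right of 0.

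Of the 5 roles, the neuropeptides had the largest median difference between the high calcium groups. In hCA-Notumor 1 of 6 was higher than in DMH (background: 18.4% of features), with a median difference of 0.033. In hCA-Tumor 4 of 6 were higher (background: 21%), with a median of 1.03. Compared directly, and so across slides, 5 of 6 were lower in hCA-Notumor than in hCA-Tumor (background: 27% of features), with a median of -0.98.

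Vip encodes vasoactive intestinal peptide, a transmitter of secretomotor and inhibitory motor neurons. Its level was 0.43, 0.27 and 0.15 on the hCA-Notumor arrays, 1.29 and 1.31 on hCA-Tumor replicates 1 and 2, and -0.47, -0.31 and -0.30 on the DMH arrays. The groups were fully separated, in the order hCA-Tumor, hCA-Notumor, DMH. The hCA-Tumor value rests on 2 arrays, since the spot on replicate 3 was an outlier in the scanner file. Vip was 0.65 ± 0.09 higher in hCA-Notumor than in DMH, a 1.56-fold difference (limma, adjusted p = 0.00215), and 1.66 ± 0.10 higher in hCA-Tumor than in DMH, 3.16-fold (adjusted p = 0.00016). The difference between hCA-Notumor and hCA-Tumor was -1.02 ± 0.10 (adjusted p = 0.000378). All 3 calls held in each of the alternatives that could be run for this gene.

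Tac1 encodes the precursor of substance P and neurokinin A, excitatory transmitters of the gut. Its level was 0.33, 0.78 and 0.36 in hCA-Notumor, 1.31, 1.501 and 1.51 in hCA-Tumor, and 0.20, 0.15 and 0.062 in DMH. The hCA-Tumor arrays lay above all others, and the hCA-Notumor arrays lay above those of DMH by less. In hCA-Notumor the difference from DMH was 0.35 ± 0.13 and was not called (limma, adjusted p = 0.0669). In hCA-Tumor Tac1 was 1.30 ± 0.13 higher than in DMH, 2.46-fold (adjusted p = 0.00042).

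Cartpt encodes the CART peptide precursor, found in enteric neurons. Its level was -2.36, -1.18 and -2.21 in hCA-Notumor, -0.12, -0.048 and 0.093 in hCA-Tumor, and -1.29, -1.88 and -1.99 in DMH. The hCA-Tumor arrays were close together and above all others, while hCA-Notumor overlapped DMH. The difference of Cartpt from DMH was -0.20 ± 0.32 in hCA-Notumor, not called (limma, adjusted p = 0.637), and 1.69 ± 0.32 in hCA-Tumor, 3.24-fold (adjusted p = 0.00572). Its difference between hCA-Notumor and hCA-Tumor, -1.89 ± 0.32, was the largest among the members in any of the 3 pairwise comparisons (adjusted p = 0.00253). Both kept probes of Cartpt had the same sign in each comparison with DMH.

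Gal encodes galanin, a peptide of submucosal and myenteric neurons. Its level was 1.05, 1.98 and 0.89 in hCA-Notumor, 2.08, 2.32 and 2.57 in hCA-Tumor, and 1.94, 1.41 and 1.44 in DMH. The 3 hCA-Tumor arrays were above all others, with hCA-Notumor replicate 2 close to them and hCA-Notumor replicates 1 and 3 below every DMH array. Gal was lower in hCA-Notumor than in hCA-Tumor by a difference of -1.02 ± 0.30 (limma, adjusted p = 0.0257). Against DMH neither group was called, with differences of -0.29 ± 0.30 in hCA-Notumor (adjusted p = 0.457) and 0.73 ± 0.30 in hCA-Tumor (adjusted p = 0.0981).

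Npy, neuropeptide Y, is carried by sympathetic fibres and by some enteric neurons. Its level lay between -2.59 and -2.43 in hCA-Notumor, between -1.90 and -1.71 in hCA-Tumor and between -2.76 and -2.51 in DMH. The difference from DMH was 0.08 ± 0.09 in hCA-Notumor (limma, adjusted p = 0.516) and 0.77 ± 0.09 in hCA-Tumor (adjusted p = 0.000816). Grp, gastrin-releasing peptide, varied within the groups more than between them. Its levels were 0.053, 1.82 and 0.10 in hCA-Notumor, 0.0024, 0.82 and 2.11 in hCA-Tumor, and 1.02, 0.55 and 0.43 in DMH, and no comparison called it.

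**Figure D3:**
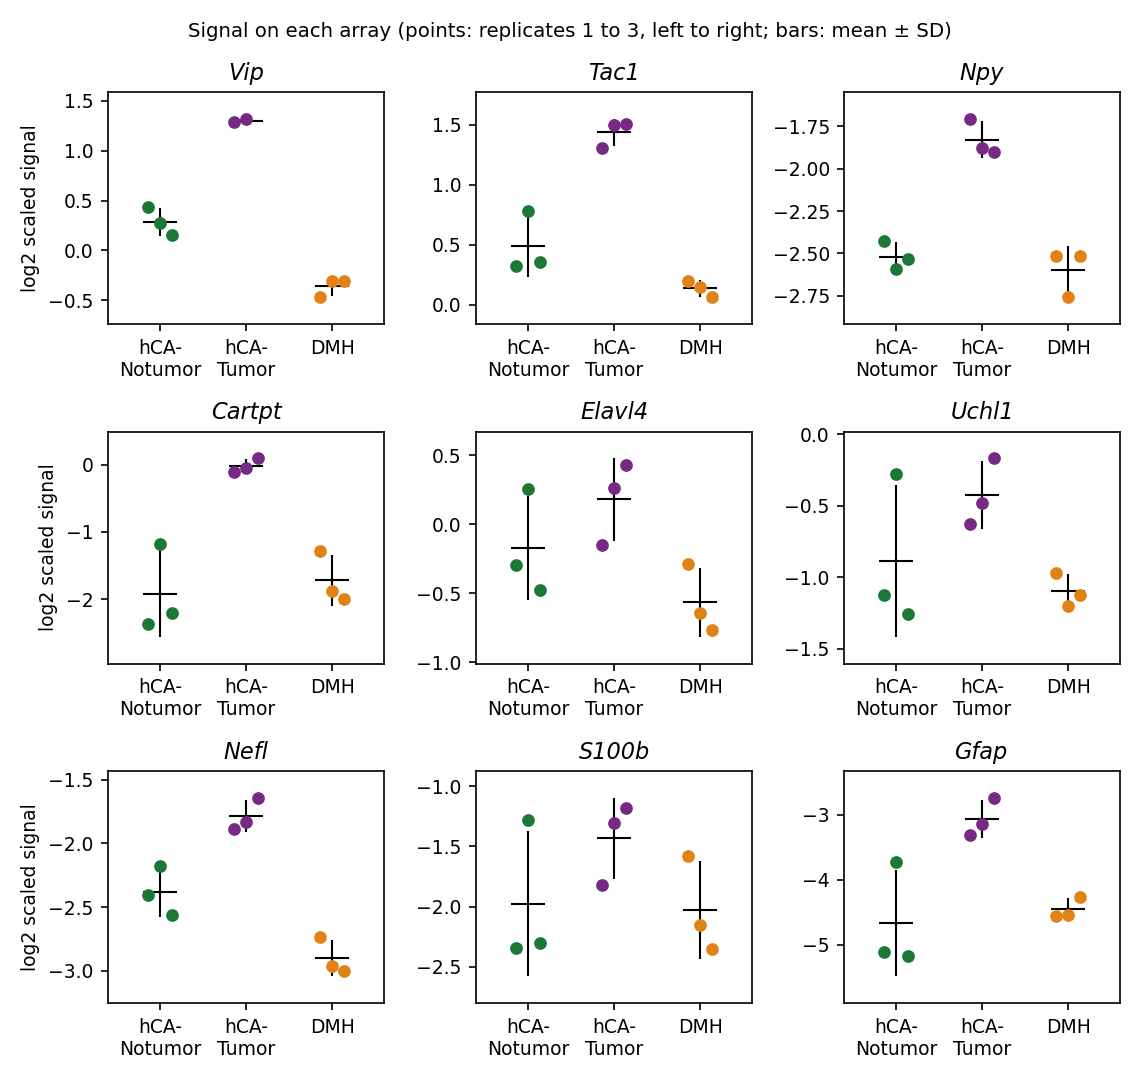
Level of 9 members (log2 scaled signal, 1 panel per gene, each with its own axis) on the hCA-Notumor, hCA-Tumor and DMH arrays. Points are replicates 1 to 3 from left to right, the bar is the mean and the line ± 1 SD (n = 3, and n = 2 for Vip in hCA-Tumor). The groups of Vip and Nefl are separated, and for Cartpt, Uchl1, S100b and Gfap hCA-Notumor replicate 2 lies above replicates 1 and 3.

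Among the transmitter enzymes, Dbh, dopamine beta-hydroxylase of noradrenaline synthesis, was the only member called. Its level was -1.54, -1.48 and -1.70 in hCA-Notumor, -2.16, -2.18 and -1.45 in hCA-Tumor, and -2.35, -2.47 and -2.73 in DMH. Both high calcium groups lay above DMH on every array, and hCA-Tumor replicate 3 lay with hCA-Notumor. Dbh was 0.94 ± 0.20 higher in hCA-Notumor than in DMH, 1.92-fold (limma, adjusted p = 0.0102), and the difference of 0.59 ± 0.20 in hCA-Tumor was not called (adjusted p = 0.0568).

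Chat, choline acetyltransferase, the enzyme that makes acetylcholine, was dim. It was well above background on 3 hCA-Notumor, 2 hCA-Tumor and 2 DMH arrays. Its level was -4.70, -4.56 and -4.45 in hCA-Notumor, -5.00, -4.73 and -5.40 in hCA-Tumor, and -4.69, -5.07 and -4.63 in DMH. The 3 hCA-Notumor arrays lay above those of hCA-Tumor and overlapped those of DMH, and no comparison called the gene. Nos1, the neuronal nitric oxide synthase, passed background on 0 of 9 arrays and has no comparison. Its signals, all within background, were -6.06, -6.02 and -6.06 in hCA-Notumor, -6.88, -7.10 and -5.41 in hCA-Tumor, and -6.39, -7.23 and -6.89 in DMH.

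Of the genes of neuronal structure and secretion, 6 of 17 were higher in hCA-Notumor than in DMH (background: 18.4% of all features), with a median difference of 0.49, and 8 of 17 in hCA-Tumor (background: 21%), with a median of 0.77. All 17 differences were positive in hCA-Notumor and 16 of 17 in hCA-Tumor, the exception being L1cam. Between the high calcium groups 2 of 17 were higher in hCA-Notumor (Elavl3 and L1cam) and 1 lower (Nefl), against 20.6 and 27% of all features.

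Nefl, the light neurofilament subunit of axons, was -2.41, -2.18 and -2.56 in hCA-Notumor, -1.88, -1.83 and -1.64 in hCA-Tumor, and -2.74, -2.97 and -3.0 in DMH. The groups did not overlap, in the same order as for Vip. The difference from DMH was 0.52 ± 0.12 in hCA-Notumor, 1.43-fold (limma, adjusted p = 0.014), and 1.12 ± 0.12 in hCA-Tumor, 2.17-fold (adjusted p = 0.000594). The hCA-Notumor call was lost in 6 of 18 alternatives, among them the slide block (0.36, adjusted p = 0.121), and the hCA-Tumor call in 0 of 18. Between hCA-Notumor and hCA-Tumor it was -0.60 ± 0.12 (adjusted p = 0.00546). Nefm, the medium subunit, was higher than in DMH by 0.72 ± 0.12 in hCA-Notumor (adjusted p = 0.00324) and by 0.86 ± 0.12 in hCA-Tumor (adjusted p = 0.00149). Normexp background correction ended both calls. The hCA-Notumor call was lost in 2 of 18 alternatives and the hCA-Tumor call in 1 of 18, with lowest differences of 0.28 and 0.34.

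Elavl3 and Elavl4 encode neuronal RNA-binding proteins of the Hu family. Elavl3 was -3.65, -3.42 and -3.74 in hCA-Notumor, -4.20, -4.04 and -4.82 in hCA-Tumor, and -4.61, -4.79 and -4.52 in DMH. The hCA-Notumor arrays were above all others, and hCA-Tumor replicate 3 was the lowest of the 9. Elavl3 was 1.04 ± 0.20 higher in hCA-Notumor than in DMH, 2.05-fold (limma, adjusted p = 0.00676). Normexp background correction (difference 0.36, adjusted p = 0.213) and quantile normalization (0.78, adjusted p = 0.151) ended that call.

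Elavl4 was -0.29, 0.25 and -0.47 in hCA-Notumor, -0.15, 0.26 and 0.42 in hCA-Tumor, and -0.29, -0.64 and -0.77 in DMH. The hCA-Tumor arrays were above the DMH arrays, and hCA-Notumor spanned the gap. It was 0.75 ± 0.23 higher in hCA-Tumor than in DMH, 1.68-fold (limma, adjusted p = 0.0404), and 11 of 18 alternatives ended that call. Both kept probes of Elavl4 had the same sign.

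Ncam1, a neural cell adhesion molecule, was 0.50, 0.96 and 0.41 in hCA-Notumor, 0.86, 0.96 and 1.18 in hCA-Tumor, and 0.33, -0.0028 and -0.024 in DMH. Every high calcium array lay above every DMH array. The difference from DMH was 0.52 ± 0.17 in hCA-Notumor (limma, adjusted p = 0.0487), a call that 15 of 18 alternatives ended, and 0.90 ± 0.17 in hCA-Tumor, 1.86-fold (adjusted p = 0.00549). Its 4 kept probes had the same sign, but with their mean the hCA-Tumor call was lost (adjusted p = 0.0647). In a fit of all kept probes, those not chosen had an adjusted p in hCA-Tumor of 0.156, 0.597 and 0.0022.

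Tubb3, the neuronal class III beta-tubulin, was 0.012, 0.73 and -0.048 in hCA-Notumor, 0.40, 0.77 and 1.11 in hCA-Tumor, and 0.19, -0.24 and -0.36 in DMH. All hCA-Tumor arrays were above those of DMH, and hCA-Notumor overlapped both. The difference from DMH was 0.37 ± 0.27 in hCA-Notumor (limma, adjusted p = 0.313) and 0.90 ± 0.27 in hCA-Tumor, 1.86-fold (adjusted p = 0.0363), a call that 8 of 18 alternatives ended, among them the slide block (adjusted p = 0.0508).

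Uchl1, the neuronal ubiquitin hydrolase also known as PGP9.5, was -1.12, -0.28 and -1.26 in hCA-Notumor, -0.63, -0.48 and -0.17 in hCA-Tumor, and -0.97, -1.20 and -1.13 in DMH. The hCA-Tumor arrays were above all DMH arrays, while hCA-Notumor replicate 2 lay among those of hCA-Tumor and replicates 1 and 3 lay near those of DMH. No comparison called it. Its difference from DMH was 0.21 ± 0.25 in hCA-Notumor (limma, adjusted p = 0.525) and 0.67 ± 0.25 in hCA-Tumor (adjusted p = 0.076).

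L1cam, a cell adhesion molecule of axons, was -0.77, -0.755 and -0.77 in hCA-Notumor, -1.63, -1.64 and -1.27 in hCA-Tumor, and -1.09, -1.42 and -1.14 in DMH. The hCA-Notumor arrays lay close together and above all others, and hCA-Tumor overlapped DMH. It was higher in hCA-Notumor than in DMH by 0.45 ± 0.12 (limma, adjusted p = 0.0255), a call that 8 of 18 alternatives ended, among them the slide block (0.32, adjusted p = 0.0762) and leaving out any 1 hCA-Notumor array. Its difference in hCA-Tumor was -0.30 ± 0.12, not called (adjusted p = 0.102). Between hCA-Notumor and hCA-Tumor it differed by 0.75 ± 0.12 (adjusted p = 0.00215).

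Of the other structure genes, Snap25, a synaptic vesicle fusion protein, was higher than DMH by 0.71 ± 0.22 in hCA-Notumor and by 0.77 ± 0.22 in hCA-Tumor (limma, adjusted p = 0.0419 and 0.0311), and 1 of 3 DMH arrays was well above background for it. The hCA-Notumor call was lost in 13 of 17 alternatives and the hCA-Tumor call in 9 of 17, both with the slide block and with no filter on dim probes. Prph, the intermediate filament peripherin, and Scg2, secretogranin II of dense-core vesicles, were called in hCA-Tumor, with differences of 0.77 ± 0.21 and 0.85 ± 0.23 (adjusted p = 0.027 and 0.0239). These calls were lost in 7 of 18 alternatives for Prph, among them the slide block (adjusted p = 0.0543), and in 5 of 18 for Scg2. The other 7 were not called in any pairwise comparison. They are Calb2 (calretinin), Syt1 (synaptotagmin 1), Stmn2 and Stmn3 (stathmins), Scg3 (secretogranin III), Uchl1 and Gap43 (a growth cone protein). Gap43 was well above background on 2 hCA-Notumor, 3 hCA-Tumor and 0 DMH arrays, so its difference in hCA-Tumor is a bound, at least 1.83-fold higher than in DMH (adjusted p = 0.249). Its signals were -5.64, -3.45 and -5.63 in hCA-Notumor and -5.33, -5.20 and -5.83 in DMH, so that only hCA-Notumor replicate 2 lay above the DMH arrays. The difference in hCA-Notumor was not called (adjusted p = 0.454) and was -0.18 without that array.

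The GDNF receptor genes gave no call. Ret, the receptor tyrosine kinase needed for enteric neuron development, was well above background on 1 hCA-Notumor, 1 hCA-Tumor and 0 DMH arrays, and was not tested. Its signals were -5.58, -5.20 and -5.61 in hCA-Notumor, -6.07, -5.90 and -4.91 in hCA-Tumor, and -5.95, -6.57 and -6.25 in DMH. Gfra1, its GDNF-binding co-receptor, differed from DMH by 0.43 ± 0.25 in hCA-Notumor (limma, adjusted p = 0.21) and by 0.12 ± 0.25 in hCA-Tumor (adjusted p = 0.763).

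Glial members gave 1 call against DMH and 1 between the high calcium groups, both of Gfap. Gfap, the glial intermediate filament, was -5.11, -3.73 and -5.17 in hCA-Notumor, -3.31, -3.14 and -2.74 in hCA-Tumor, and -4.57, -4.55 and -4.26 in DMH. The hCA-Tumor arrays lay above all others, and hCA-Notumor replicates 1 and 3 were the lowest of the 9. The difference from DMH was 1.40 ± 0.38 in hCA-Tumor, 2.63-fold (limma, adjusted p = 0.0236), and the difference between hCA-Notumor and hCA-Tumor was -1.61 ± 0.38 (adjusted p = 0.0102). The call against DMH was lost in 8 of 18 alternatives, among them the slide block (adjusted p = 0.103), normexp correction (0.48, adjusted p = 0.252) and leaving out any 1 DMH array, and the call between the high calcium groups in 3 of 17. In a fit of all kept probes the second probe of Gfap disagreed: its difference from DMH was 0.90 in hCA-Notumor (adjusted p = 0.202) and 0.17 in hCA-Tumor (adjusted p = 0.833), and with the mean of both probes neither call held.

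S100b, a calcium-binding protein of enteric glia, was -2.34, -1.28 and -2.31 in hCA-Notumor, -1.82, -1.31 and -1.18 in hCA-Tumor, and -1.58, -2.16 and -2.35 in DMH. The 3 groups overlapped, with hCA-Notumor replicate 2 far above replicates 1 and 3. Its differences from DMH were 0.05 ± 0.34 in hCA-Notumor and 0.59 ± 0.34 in hCA-Tumor (limma, adjusted p = 0.912 and 0.222). Ngfr, the low-affinity neurotrophin receptor p75, was not called, with differences from DMH of 0.27 ± 0.20 in hCA-Notumor and 0.49 ± 0.20 in hCA-Tumor (adjusted p = 0.32 and 0.103).

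In each group 1 array carried most of the highest values. Among the 28 members measured on all 9 arrays, hCA-Notumor replicate 2 was the highest of its group in 26, hCA-Tumor replicate 3 in 24 and DMH replicate 1 in 23. Over all features measured on every array these arrays were the highest of their group in 30.04%, 40.5% and 56.1%. For the 17 structure genes the count was 17, 15 and 14.

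The gap of hCA-Notumor replicate 2 to the mean of replicates 1 and 3 had a median of 0.69 over 29 members and was above 0.5 in 18 of them. It was 2.18 for Gap43, 1.74 for Grp, 1.42 for Gfap, 1.11 for Cartpt, 1.04 for S100b and 1.01 for Gal. It was -0.016 for Vip, -0.11 for Npy, 0.010 for Chat and 0.013 for L1cam. Among the neuropeptides it was thus near 0 for Vip and Npy and above 1 for Gal, Cartpt and Grp. The gap of hCA-Tumor replicate 3 was smaller, with a median of 0.37 and 5 of 28 members above 0.5.

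**Figure D4:**
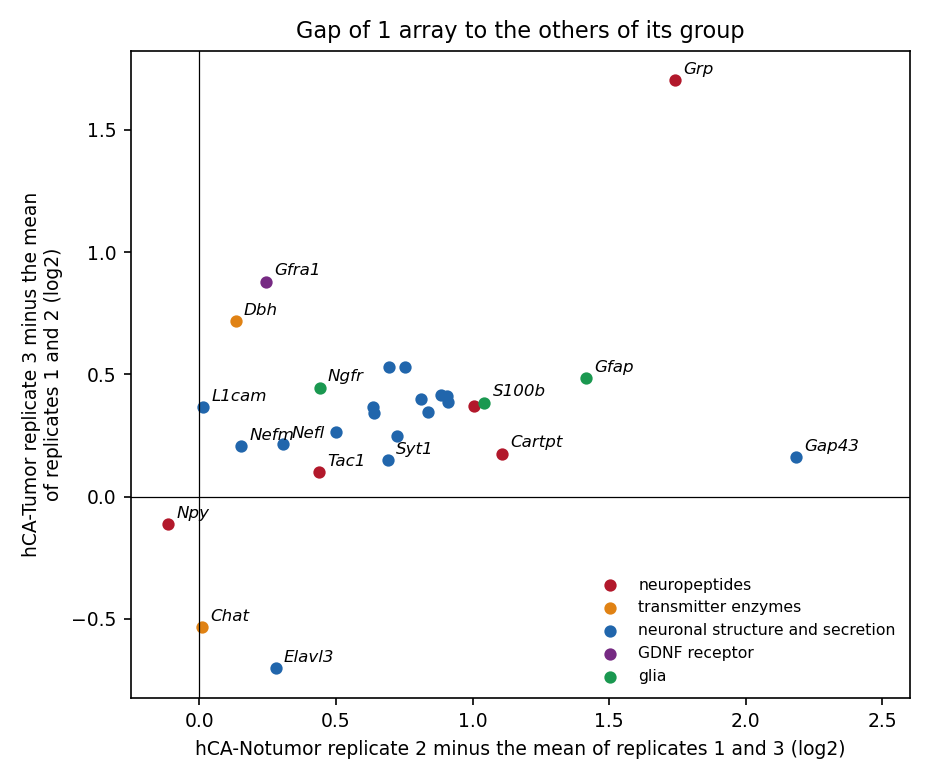
Gap of hCA-Notumor replicate 2 to the mean of the other arrays of its group (x axis, log2) against the gap of hCA-Tumor replicate 3 to the others of its group (y axis, log2) for the 28 members measured on all arrays, coloured by role. Of the 17 structure genes 13 lie above 0.5 on the x axis and 2 on the y axis, Gap43, Grp and Gfap lie farthest right, and Vip is absent for its missing spot.

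Counts depended on these arrays. Without hCA-Tumor replicate 3, 8 members were higher and 1 lower (L1cam) in hCA-Tumor than in DMH, with a median difference of 0.60. Of the 21094 features, 4235 were then higher and 3817 lower. In hCA-Notumor 4 members were higher and 6 lower than in hCA-Tumor, with a median of -0.25 (features: 6541 higher and 5725 lower). Without hCA-Tumor replicate 3 the hCA-Tumor calls of Elavl4, Snap25, Prph, Tubb3, Scg2 and Gfap against DMH were lost and Elavl3 was called higher. An alternative chosen after seeing the data left out both hCA-Notumor replicate 2 and hCA-Tumor replicate 3. There 7 members were higher and 2 lower (Gal and Gfap) in hCA-Notumor than in DMH (features: 4166 higher and 3123 lower). In hCA-Tumor 18 were higher and 1 lower (L1cam) than in DMH (features: 4213 and 3649). In hCA-Notumor 4 were higher and 12 lower than in hCA-Tumor (features: 5734 and 5180). Without hCA-Notumor replicate 2 alone, 19 members were higher in hCA-Tumor than in DMH (4371 features). In that setting 16 were lower in hCA-Notumor than in hCA-Tumor (5100 features).

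Slide also moved the comparison of hCA-Notumor with DMH. With the slide as a block, 4 members were higher (2974 of 21094 features) and the member median was 0.16, with 9 of 29 differences negative. The only DMH array on slide 1 is replicate 1. Both the block and the fit of slide 1 alone set hCA-Notumor against that array, so their equal median was fixed in advance. In hCA-Tumor the block gave 10 higher and 1 lower than DMH with a median of 0.76, and 21 members were higher within slide 2, where 2 arrays stood against 2.

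Smooth muscle genes moved beside the members. Of 16 measured, 10 were higher in hCA-Notumor than in DMH (background: 18.4% of features) and all 16 in hCA-Tumor (background: 21%). The median differences were 0.67 and 1.18. Their median difference from the DMH mean lay between 0.54 and 0.87 on the hCA-Notumor arrays, between 1.02 and 1.30 on the hCA-Tumor arrays and between -0.30 and 0.38 on the DMH arrays. With the slide as a block, 2 of 16 were higher in hCA-Notumor than in DMH (median 0.26) and 16 of 16 in hCA-Tumor (median 1.38). In that setting 2974 and 5041 of all 21094 features were higher. The highest array of the list was hCA-Notumor replicate 2 and DMH replicate 1 in their groups for all 16 genes, as for most members, but hCA-Tumor replicate 2 and not replicate 3 in hCA-Tumor for 14 of 16. Myocd, a coactivator of smooth muscle transcription, differed from DMH by 1.37 ± 0.14 in hCA-Notumor and 1.65 ± 0.14 in hCA-Tumor (limma, adjusted p = 0.000348 and 0.000257).

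Genes of other cell types also gave calls, some lists at a rate near that of all features. Of all features, 18.4% were higher and 17.3% lower than DMH in hCA-Notumor, and 21% and 15.9% in hCA-Tumor. Enteroendocrine genes, which share secretory genes with neurons, had 5 of 16 higher and 4 lower in hCA-Notumor than in DMH (median -0.0059), and 4 higher and 5 lower in hCA-Tumor (median -0.026). Epithelial genes had 4 of 13 higher and 1 lower in hCA-Notumor (median 0.15), and 3 higher and 2 lower in hCA-Tumor (median 0.086). Adipocyte genes were lower in both groups, 7 of 8 each, with medians of -3.12 in hCA-Notumor and -2.88 in hCA-Tumor. Within hCA-Tumor, replicate 3 was the highest array in 8 of 8 of them, by a median of 1.58. Of mesothelial genes 4 of 4 were lower in hCA-Notumor and 4 of 4 higher in hCA-Tumor than in DMH. Of 7 fibroblast genes 0 were higher and 4 lower in hCA-Notumor, and 4 higher and 1 lower in hCA-Tumor. Of 5 markers of interstitial cells of Cajal 3 were higher and 1 lower in hCA-Notumor, and 1 higher and 0 lower in hCA-Tumor. Endothelial genes gave 1 higher and 1 lower of 6 in each group. The part of these cell types in the members' differences was not tested.

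**Figure D5:**
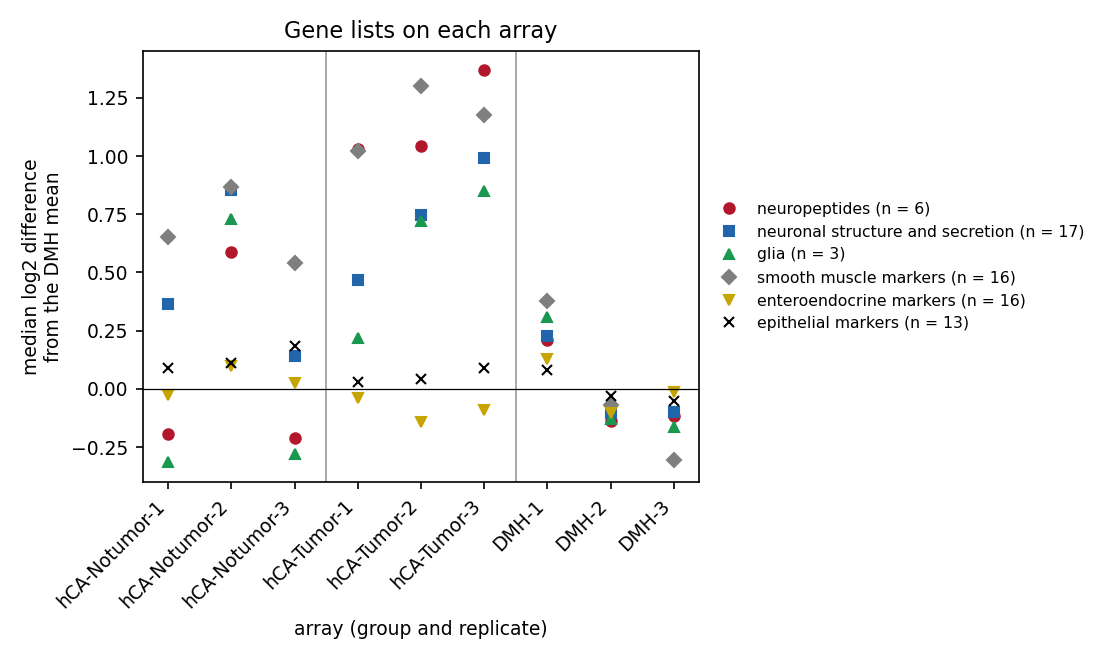
Median log2 difference from the DMH mean of 6 gene lists (symbols, with the number of genes in the legend) on each of the 9 arrays. Neuropeptides are above 1 on all 3 hCA-Tumor arrays and below 0 on hCA-Notumor replicates 1 and 3, where smooth muscle genes are above 0.5, and enteroendocrine and epithelial genes stay within 0.2 of 0 on every array.

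Other genes of enteric neurons gave calls of both signs. Of 30 listed genes 26 were measured, with 5 higher and 1 lower in hCA-Notumor than in DMH (background: 18.4% higher and 17.3% lower), with a median of 0.25. In hCA-Tumor 10 were higher and 1 lower than in DMH (background: 21 and 15.9%), with a median of 0.55. Between hCA-Notumor and hCA-Tumor, 1 was higher and 8 lower in hCA-Notumor (background: 20.6 and 27%). Penk, the enkephalin precursor, was 1.69 ± 0.23 higher in hCA-Tumor than in DMH and differed by -1.47 ± 0.23 between hCA-Notumor and hCA-Tumor (limma, adjusted p = 0.00129 and 0.00158). Slc5a7, the choline transporter of cholinergic neurons, was 1.47 ± 0.24 higher in hCA-Tumor than in DMH, and Adcyap1, the precursor of the Vip-related peptide PACAP, 1.24 ± 0.24 higher (adjusted p = 0.00321 and 0.00599). For both genes, 1 of 3 DMH arrays was well above background, and for Adcyap1 2 of 3 hCA-Notumor arrays.

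Of 12 other glial genes 10 were measured, with 2 higher and 1 lower in hCA-Notumor than in DMH (background: 18.4 and 17.3% of features). In hCA-Tumor 4 were higher and 2 lower (background: 21 and 15.9%). Fabp7, a fatty acid-binding protein of glia, was lower than in DMH in both, with differences of -1.40 ± 0.12 in hCA-Notumor and -0.63 ± 0.12 in hCA-Tumor (limma, adjusted p = 0.000198 and 0.00657), and 2 of 3 hCA-Notumor arrays were well above background. Cryab, a small heat shock protein that smooth muscle also expresses, was 0.62 ± 0.20 higher in hCA-Notumor and 1.05 ± 0.20 higher in hCA-Tumor than in DMH. Erbb3, a neuregulin receptor that epithelium also expresses, was 0.98 ± 0.06 higher in hCA-Notumor than in hCA-Tumor.

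Receptors for the listed peptides gave calls of both signs. Of 10 receptors 7 were measured, with 4 higher and 1 lower in hCA-Notumor than in DMH (background: 18.4 and 17.3% of features). In hCA-Tumor 2 were higher and 1 lower (background: 21 and 15.9%). Npy2r, a receptor for neuropeptide Y and peptide YY, was lower in hCA-Notumor than in DMH, with a difference of -1.81 ± 0.26 (limma, adjusted p = 0.00162). Tacr1, the substance P receptor, was 1.18 ± 0.13 higher in hCA-Notumor than in hCA-Tumor (adjusted p = 0.000412), and Grpr, the receptor of Grp, 0.94 ± 0.10 higher (adjusted p = 0.000378).

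Of 12 neurotrophic ligands and receptors 8 were measured, with 1 higher and 1 lower in each high calcium group than in DMH. Background shares were 18.4% higher and 17.3% lower in hCA-Notumor, and 21% and 15.9% in hCA-Tumor. Ntrk2, the receptor for brain-derived neurotrophic factor, was lower than in DMH in both, with differences of -2.24 ± 0.20 in hCA-Notumor and -1.91 ± 0.20 in hCA-Tumor (limma, adjusted p = 0.000222 and 0.000551), and 2 of 3 hCA-Notumor arrays were well above background. Ntf3, the ligand neurotrophin 3, was 0.46 ± 0.06 higher in hCA-Notumor and 0.33 ± 0.06 higher in hCA-Tumor. Gfra3, the artemin co-receptor, was 0.36 ± 0.10 higher in hCA-Notumor than in hCA-Tumor.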

How the data were processed

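The 9 mouse colon samples were run on 1-colour Agilent arrays (design 014868, annotated on build mm9). The deposited intensity of a spot is Feature Extraction's processed signal (version 10.5.1.1, per the file headers). The authors' whole-series table holds log2 values, each column equal to the log2 processed signal minus a constant of its array. It covers part of the probes by an unstated selection and was tried as an alternative.

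Intensities were put on the log2 scale relative to the 75th percentile of their array. Controls were removed, and spots marked as outliers (in 188 probes) were set to missing. The filter asked that a probe be well above background on every array of some group, which 27207 of 41174 probes met. Names came from transcript accessions looked up in RefSeq, assembly GRCm38.p6 (25097 with 1 symbol, 16077 unnamed here), and the brightest kept probe stood for a gene. One limma model (3.58.1, R 4.3.3) held all 9 arrays, with Benjamini-Hochberg adjustment at 0.05 over 21094 features. A bound written as at least N-fold sets the bright group against the higher of the dim signal and the lowest signal well above background on each dim array. The fit was tested on simulated data.

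The members, gene lists and tests were chosen with earlier results of these data known. Values on every array are given, per role, for up to 4 called members with the largest pairwise difference, and for Vip, Tac1, Nos1, Chat, Elavl4, Uchl1, Ret, S100b and Gfap (Sox10 had no named probe). Other lists name up to 3 called genes. Array values of Grp and L1cam were added after their values were seen, and those of Gap43 in hCA-Notumor and DMH also lie outside this rule. Alternatives were each array left out in turn, blocking on slide or fitting 1 slide alone, the replicate number as a block, the mean of a gene's probes, no dim-probe filter, quantile normalization, normexp correction (offset 50), the whole-series table and, chosen after seeing the data, leaving out hCA-Notumor replicate 2 and hCA-Tumor replicate 3 together. Same-numbered arrays did not deviate together (correlations of -0.57 to 0.22).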

Additional observations from a re-analysis of the deposited data

Results flagged for a closer look

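For 4 members the difference from DMH had opposite signs in the high calcium groups and the groups themselves differed past the threshold (limma, adjusted p under 0.05, n = 3 arrays per group). Of all features 47.5% were called between these groups, and the share that also had opposite signs was not counted. None of the negative differences from DMH was called. Their adjusted p was 0.637 for Cartpt, 0.664 for Gfap and 0.457 for Gal in hCA-Notumor, and 0.102 for L1cam in hCA-Tumor. The hCA-Notumor sign changed in 2 of 18 alternatives for Cartpt and in 3 of 18 for Gfap. The hCA-Notumor minus hCA-Tumor difference of Cartpt was -1.89 (adjusted p = 0.00253), with -0.20 in hCA-Notumor and 1.69 in hCA-Tumor against DMH. That of Gfap was -1.61 (adjusted p = 0.0102), with -0.21 in hCA-Notumor and 1.40 in hCA-Tumor against DMH, and its second probe gave 0.73. That of Gal was -1.02 (adjusted p = 0.0257), with -0.29 in hCA-Notumor and 0.73 in hCA-Tumor against DMH. That of L1cam was 0.75 (adjusted p = 0.00215), with 0.45 in hCA-Notumor and -0.30 in hCA-Tumor against DMH. The calls of Cartpt and L1cam between the high calcium groups held in all 17 alternatives, while that of Gal was lost in 6 and that of Gfap in 3.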

How the results depend on the processing

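No called member changed sign under any alternative. Against DMH, the calls of Vip and Dbh in hCA-Notumor and of Vip, Tac1, Npy, Cartpt and Nefl in hCA-Tumor held in every alternative that gave a value, as did those of Vip, Tac1, Npy, Cartpt and L1cam between hCA-Notumor and hCA-Tumor.

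Members higher in hCA-Notumor than in DMH numbered 8. The count was 3 with normexp background correction or the whole-series table, and 5 with quantile normalization or no filter on dim probes. Features called higher there were 1874 of 21094, 977 of 18459, 3038 of 21094 and 3141 of 32665, in that order. It was 4 with slide blocked (2974 features), where the difference rests on the same arrays as within slide 1. Leaving out 1 array gave 4 (without DMH replicate 2 or 3; 5 without hCA-Notumor replicate 1 or 2) to 9, with 0 to 1 lower (1 without hCA-Notumor replicate 2), and the median without hCA-Notumor replicate 2 was 0.20. Features called higher were 2801 and 2764 without DMH replicates 2 and 3. They were 2899 and 3098 without hCA-Notumor replicates 1 and 2, and 5446 without hCA-Tumor replicate 3, the setting with 9 members. Members higher in hCA-Tumor than in DMH numbered 13 (4436 features), and 21 within slide 2 (4850 features). Within slide 2 the difference rests on the same arrays as with the slide blocked. Leaving out 1 array gave 7 (without hCA-Tumor replicate 2, DMH replicate 2 or DMH replicate 3; 8 without hCA-Tumor replicate 3) to 19 (without hCA-Notumor replicate 2), with 0 to 1 lower (1 without hCA-Tumor replicate 3 or DMH replicate 2), and quantile normalization or the slide block gave 1 lower. In the 5 settings named for higher members, 3413, 3679, 3331, 4235 and 4371 features were higher, in that order. With quantile normalization and the slide block, 3287 and 3924 features were lower. Between hCA-Notumor and hCA-Tumor, the 2 higher members became 1 with normexp, quantile normalization, the whole-series table or the slide block, and 1 (without hCA-Notumor replicate 2) to 4 (without hCA-Tumor replicate 3) leaving out 1 array, while the 7 lower members became 6 to 16 (16 without hCA-Notumor replicate 2). Higher features numbered 2668, 3970, 1772 of 18459, 3034, 3788 and 6541 in those settings, in that order. Without hCA-Notumor replicate 2, 5100 features were lower. The median was -0.65 without hCA-Notumor replicate 2 and -0.20 without hCA-Notumor replicate 3. For the mean of both groups against DMH, 12 became 5 with normexp, 6 with the whole-series table, and 6 (without DMH replicate 3; 7 without DMH replicate 2) to 12 leaving out 1 array. Higher features numbered 1677 with normexp, 649 of 18459 with the whole-series table, 2404 without DMH replicate 3 and 2689 without DMH replicate 2. Without both hCA-Notumor replicate 2 and hCA-Tumor replicate 3, chosen after seeing the data, the counts were 2 lower in hCA-Notumor than in DMH, 1 lower in hCA-Tumor than in DMH, and 4 higher and 12 lower between hCA-Notumor and hCA-Tumor.

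With the replicate number as a block, 8 members were higher in hCA-Tumor than in DMH (3610 features), and the numbers did not pair the arrays. Features called fell below the main counts of 7530, 7793, 10030 and 6662 (hCA-Notumor, hCA-Tumor, both against each other, and their mean) to 3878, 4157, 6290 and 3181 with normexp and to 3339, 2403, 4783 and 2144 with the whole-series table. They were 3703 for hCA-Notumor within slide 1 and 6321 between the high calcium groups with the slide block. Leaving out 1 array gave 5290 to 9426, 5974 to 8052, 8273 to 12266, and 4319 to 7474. The whole-series table moved the share of called features that were higher in hCA-Notumor than in DMH to 29.3%, against 51.5%, in hCA-Tumor to 39.5%, against 56.9%, and in their mean to 30.3%, against 56.5%. Its median over all features was -0.14 in hCA-Notumor, against 0.074 in the scanner values. The cause of these shifts was not tested. Nos1 and Ret were limited by signal over background, and the whole-series table held 25 of the 29 tested members, with no value for Vip, Chat, Snap25 and Gap43, so that Vip and Snap25 among the 8 called in hCA-Notumor could not be called there.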
